A study of Mus musculus with 29 samples.

Results

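The sites described here are places in the genome of adult mouse microglia, the resident macrophages of the brain, where a binding peak of the transcription factor IRF8 was present in adults and at postnatal day 14 (P14) but not at postnatal day 9 (P9). The sites were selected on the presence of IRF8 peaks at P9, P14 and in adults. Within each age, overlapping peaks were merged into regions, each listed region being used once, and a region counted as consensus when 2 or more libraries of that age had a peak in it. An acquired site was an adult consensus region that shared at least 1 bp with a P14 consensus region and with no peak of any P9 library. This rule was met by 4804 of 16935 adult consensus regions. Of the others, 2765 had a peak in a P9 library, 4885 had P14 peaks without a P14 consensus region, and 4481 lacked a peak at both earlier ages.

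IRF8 was mapped by CUT&RUN, in which an antibody guides a nuclease to a chromatin protein and the released DNA is sequenced. The antibody was against GFP, in female IRF8-EGFP mice, in sorted microglia, with 4 libraries at P9, 3 at P14 and 3 from adults. A further 3 IRF8 libraries are titled as peritoneal macrophages, and the title was followed although their source label names microglia. PU.1, H3K27ac and H3K4me1 were mapped in sorted microglia of female adult WT and IRF8KO (KO) mice, with 2 libraries for each target and genotype. The labels do not say how the knockout was made. No RNA was measured, so the loss of IRF8 was not checked. The protocol gives an age of 3 months, which was applied to the adults. Nothing in the labels says whether replicates came from separate animals, so the p-values measure the spread between these libraries.

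IRF8 is a member of the interferon regulatory factor family that is needed for the development of microglia and other myeloid cells. It binds DNA weakly alone and often binds together with PU.1, an ETS factor that defines the myeloid lineage, at composite sites that join the GGAA core of an ETS site to the GAAA core of an IRF half-site. H3K4me1 marks primed and active enhancers, and H3K27ac marks active enhancers and promoters. The weeks after birth are the period in which microglia take on their adult gene programme.

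A peak list limits what absence means. The P9 lists held 1168 to 2068 regions from 13.4 to 20.9 M fragments (M, mega), the P14 lists 7931 to 19243 regions from 13.9 to 24.4 M, and the adult lists 17048 to 29667 regions from 7.25 to 24.7 M. An acquired site is thus one that was not called at P9, and each age had its own IgG control, so age and control cannot be told apart. The labels state that the P9 libraries are 4 of 7 samples and the KO H3K27ac libraries 2 of 3, without saying how they were picked, and give a batch for adults and macrophages only, with replicates 1 and 2 in batch 1 and replicate 3 in batch 2. Markers followed the label: 23 of 24 genes of the homeostatic microglia list had WT H3K27ac in both libraries within 1 kb of a start, against 1 of 13 neuron genes, 2 of 10 astrocyte genes and 3 of 12 oligodendrocyte lineage genes. The counts were 5 of 10 for endothelial and 7 of 13 for border macrophage genes. Whether this acetylation lies in microglia or in other cells that passed the sort was not tested.

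Membership was graded. Peaks were present at 75.7%, 98.4% and 65.0% of the acquired sites in P14 replicates 1, 2 and 3, and at 95.5%, 99.6% and 71.4% in adult replicates 1, 2 and 3. P14 replicate 2 held most of these calls: without it the rule was met by 1859 sites, without P14 replicate 1 by 3016 and without replicate 3 by 3538. With a peak required in every library of a group, 1442 sites remained under the rule. Just inside it were 2889 sites with a peak in exactly 2 P14 libraries, of which 29.9% had WT PU.1. Just outside were 4722 adult regions with a peak in 1 P14 library and none at P9, of which 15% had WT PU.1, and 1182 regions in the P14 consensus with a peak in 1 P9 library, of which 57.4% had WT PU.1.

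The sequences below come from the genome GRCm38 and give examples of acquired sites. The first 4 are the highest-ranked acquired sites with a composite motif (GGAA, any base, then TGAAA, on either strand) within 100 bp of their centre, where rank was the mean percentile of the authors' −log10 p over the P14 and adult lists. Each is 201 bases of the plus strand around the site's centre, 5′ to 3′, and the capitals mark the composite motif, which in Rab14 overlaps an extended ETS motif (GAGGAAGT).
Ccdc88a (chr11:29497125-29497325): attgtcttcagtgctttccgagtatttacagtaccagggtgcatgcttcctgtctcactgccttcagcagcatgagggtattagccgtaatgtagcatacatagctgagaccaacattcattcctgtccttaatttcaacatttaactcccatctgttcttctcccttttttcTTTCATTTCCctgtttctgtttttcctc
Rab14 (chr2:35209408-35209608): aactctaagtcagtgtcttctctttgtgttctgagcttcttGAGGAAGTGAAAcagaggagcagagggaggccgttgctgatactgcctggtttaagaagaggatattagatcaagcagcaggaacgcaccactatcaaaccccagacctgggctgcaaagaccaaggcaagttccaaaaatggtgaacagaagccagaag
Epgn (chr5:90999981-91000181): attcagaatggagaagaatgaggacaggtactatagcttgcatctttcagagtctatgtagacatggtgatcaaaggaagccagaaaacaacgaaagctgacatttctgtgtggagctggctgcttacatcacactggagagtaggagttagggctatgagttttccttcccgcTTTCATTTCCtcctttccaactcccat
Apoh (chr11:108248547-108248747): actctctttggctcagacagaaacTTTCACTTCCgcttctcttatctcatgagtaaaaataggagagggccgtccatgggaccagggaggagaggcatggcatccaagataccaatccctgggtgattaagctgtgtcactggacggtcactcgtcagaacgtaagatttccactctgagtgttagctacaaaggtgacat
None of these 4 windows overlaps an exon. The 4 sites ranked 21, 45, 48 and 53, and none of the sites ranked 1 to 8 held the composite motif within 100 bp of its centre. Each site is named by the gene with the nearest protein-coding start. Its centre lay 3295 bp downstream of that start at Ccdc88a and 8388, 27383 and 94707 bp upstream at Rab14, Epgn and Apoh. Ccdc88a encodes the actin-binding protein girdin and Rab14 a small GTPase of endosomal traffic. Epgn encodes a ligand of the EGF receptor and Apoh the plasma protein beta-2-glycoprotein I. On its own strand the motif reads GGAAATGAAA at Ccdc88a and Epgn and GGAAGTGAAA at Rab14 and Apoh. It lay 150, 106 and 136 bp from the strongest summit in adult replicates 1, 2 and 3 at Ccdc88a, and 126, 128 and 108 bp from it at Apoh.

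The next sequences stand for other kinds of acquired site. Arhgef18 is a site that had PU.1 and acetylation in WT and neither in KO. Zfp462 is a site with the same PU.1 and acetylation pattern, far from the nearest protein-coding start. The others are the strongest site upstream of the microglial identity gene Sall1 and the promoter of the interferon-inducible GTPase gene Irgm2. The capitals mark the extended ETS motif GAGGAAGT in Arhgef18 and Zfp462, a paired IRF half-site (GAAA, any 2 bases, then GAAA, here on the minus strand) in Sall1, and in Irgm2 a composite motif whose last letters are also the start of a paired IRF half-site. The windows of Zfp462 and Sall1 are centred on the motif, since none of these motifs lay within 100 bp of the site's centre. The others are centred on the site's centre.
Arhgef18 (chr8:3441725-3441925): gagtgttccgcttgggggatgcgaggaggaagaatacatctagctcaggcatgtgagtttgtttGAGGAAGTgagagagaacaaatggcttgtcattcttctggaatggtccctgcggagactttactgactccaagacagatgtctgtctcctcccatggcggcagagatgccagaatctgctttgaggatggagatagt
Zfp462 (chr4:54497664-54497864): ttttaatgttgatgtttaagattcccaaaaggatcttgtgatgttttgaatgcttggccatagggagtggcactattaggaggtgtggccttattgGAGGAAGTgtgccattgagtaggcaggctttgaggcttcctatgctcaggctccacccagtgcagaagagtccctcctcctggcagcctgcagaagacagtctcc
Sall1 (chr8:89286651-89286851): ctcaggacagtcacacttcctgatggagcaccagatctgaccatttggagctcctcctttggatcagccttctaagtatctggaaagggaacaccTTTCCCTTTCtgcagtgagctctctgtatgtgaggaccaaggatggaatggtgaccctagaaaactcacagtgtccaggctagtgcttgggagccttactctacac
Irgm2 (chr11:58214743-58214943): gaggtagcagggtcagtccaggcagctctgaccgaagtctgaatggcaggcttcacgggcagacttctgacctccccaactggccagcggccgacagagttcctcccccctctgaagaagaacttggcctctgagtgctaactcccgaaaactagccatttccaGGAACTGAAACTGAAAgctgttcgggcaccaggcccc
At Arhgef18 the ETS motif lay 122, 118 and 139 bp from the summit in the 3 adult replicates, and at Zfp462 it lay 121, 113 and 124 bp from it. The paired half-site of Sall1 lay farther away, at 217, 227 and 203 bp. The composite motif of Irgm2 lay at 168, 25 and 36 bp. Whether IRF8 binds these motifs was not tested.

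Acquired sites were distributed in the genome much as adult IRF8 regions were in all. Their centre was within 1 kb of a transcription start at 32.7% (background 33.5% of all adult regions), in an intron at 38.9%, in an exon at 3.73% and between genes at 24.7%. This promoter share was 31.2% to 33.7% over the sites called in each of the 6 P14 and adult libraries. Their median width was 1259 bp, against 1619 bp for regions with a P9 peak and 802 bp for regions with no P9 or P14 peak. The median adult strength, as a within-list percentile of −log10 p, followed the same order at 60.5 for acquired sites, 86.1 with a P9 peak and 29.7 with neither, so width and strength move with every comparison of these classes. Median GC content around the centre was 48.3% for acquired sites and 48.8% for all adult regions.

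Nearly all acquired sites lay in H3K4me1 and H3K27ac in WT microglia, and PU.1 was called at fewer. A PU.1 peak was present at 57.6% and 47.7% of them in WT replicates 1 and 2, H3K27ac at 94.8% and 90.9%, and H3K4me1 at 97.1% and 94.8%. By consensus of both libraries, 1786 sites or 37.2% had WT PU.1 (background 27% of all adult regions), 4265 or 88.8% had WT H3K27ac (background 81.8%) and 4558 or 94.9% had WT H3K4me1 (background 91.3%). With WT PU.1 replicate 2 left out, so that replicate 1 alone decides, the PU.1 share was 57.6%. All of PU.1 and both marks were found at 34.7% of the sites, both marks without PU.1 at 51.4%, and none of the 3 at 2.16%. Over all adult regions these shares were 24.8%, 53.6% and 4.95%. WT PU.1 was at 33.2% of 1569 promoter sites and 39.1% of 3235 distal sites. Replicate 2 of both PU.1 genotypes was called by the authors at a q of 0.05 against another control, and replicate 1 at 0.01.

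Acquired sites stood between the adult regions bound at P9 and those with no earlier peak. A PU.1 peak was found in WT replicates 1 and 2 at 76.9% and 71.5% of regions with a P9 peak, and at 19.2% and 11.9% of regions with no P9 or P14 peak. Over the 2 WT and 2 KO libraries the PU.1 share at acquired sites was 31.8 points (SD 6.21 over 4 libraries) above that at regions with no earlier peak. It was higher in each library, by 38.4 and 35.8 points in WT and 25.4 and 27.8 in KO. Against regions with a P9 peak the difference was -17.8 points (SD 4.79), at -19.3 and -23.8 in WT and -14.0 and -13.8 in KO. The SDs thus hold the gap between genotypes as well as that between replicates. Both differences had p = 0.13 by an exact two-sided sign-flip permutation test over libraries, the smallest p that 4 libraries allow. After Benjamini-Hochberg adjustment over 8 comparisons this p was 0.25, so neither passed 0.05. Without P14 replicate 2 the second difference was -9.68 points. Within 5 equal classes of adult peak strength the differences were 26.6 and -5.90 points.

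The histone marks separated acquired sites from regions with no earlier peak but hardly from regions with a P9 peak. Against regions with no earlier peak, H3K27ac was 15.5 points higher (SD 1.75) and H3K4me1 7.83 points higher (SD 1.16), each in 4 of 4 libraries and each at the smallest exact permutation p of 0.13. Against regions with a P9 peak the differences were -2.19 points (SD 3.54, exact permutation p = 0.375) for H3K27ac and -0.00735 points (SD 0.281, exact permutation p = 1.00) for H3K4me1. Within classes of adult strength these last differences turned to 5.51 and 6.61 points, higher at acquired sites. Neither difference kept 1 direction.

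**Figure D1:**
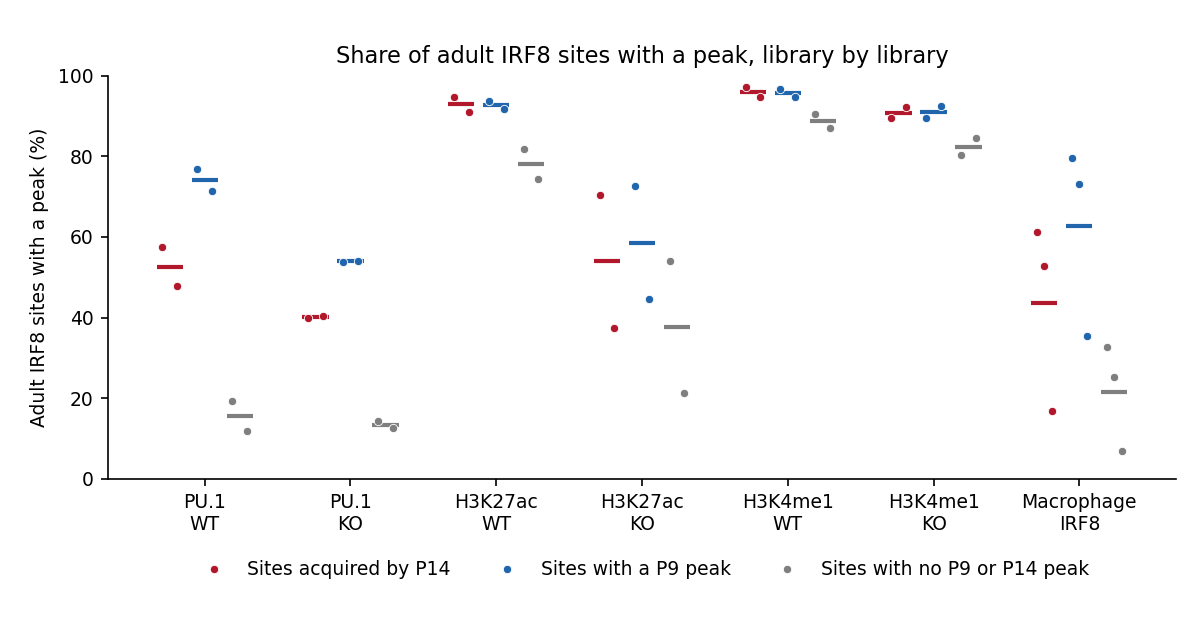
Percent of adult IRF8 sites (y axis) with a peak in each PU.1, H3K27ac, H3K4me1 and macrophage IRF8 library, where each point is 1 library and the line is the mean. Red, acquired by P14 (n = 4804 sites); blue, with a P9 peak (n = 2765); grey, with no P9 or P14 peak (n = 4481). PU.1 and macrophage IRF8 order the classes in every library, and the 2 KO H3K27ac libraries lie far apart.

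In both KO libraries fewer acquired sites had PU.1 or H3K27ac than in either WT library, and H3K4me1 was the least different. PU.1 peaks were present at 39.8% and 40.3% of the sites in KO replicates 1 and 2, below both WT libraries. H3K27ac was present at 70.5% and 37.4%, also below both WT libraries, and the 2 KO libraries lay farther apart than KO replicate 1 and either WT library. KO H3K27ac replicate 2 had 8.57 M fragments and 31524 regions, against 14.7 M and 88400 in replicate 1 and 72354 and 72875 regions in the WT libraries. H3K4me1 was present at 89.5% and 92.1%. By consensus of both KO libraries, 27.7% had PU.1 (background 20.8%), 33.4% had H3K27ac (background 28.3%) and 89.2% had H3K4me1 (background 86.3%). The differences KO minus WT were -12.6 points for PU.1, -38.9 points for H3K27ac and -5.18 points for H3K4me1, each with p = 0.333 (adjusted 0.333 over 3) by an exact two-sided permutation test, the smallest p that 2 against 2 libraries allow, so no difference could pass 0.05. Without WT PU.1 replicate 1 the PU.1 difference was -7.69 points, and without the shallow KO library the H3K27ac difference was -22.4 points.

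Read site by site, most acquired sites with a WT signal kept a KO peak. Of the 1786 with WT PU.1, 373 or 20.9% had no peak in either KO library (background 22.1% of all adult regions with WT PU.1), and 988 or 55.3% had a peak in both. Without KO PU.1 replicate 1 or 2 the share with no KO peak was 33.3% or 32.3%, and it was 31.9% without WT replicate 2. Of the 4265 with WT H3K27ac, 897 or 21% had no KO peak (background 23.9%), which is 24.3% when KO replicate 1 alone is used and 58.9% when the shallow replicate 2 alone is used. For H3K4me1 the count was 164 of 4558 or 3.6% (background 4.49%), and 9.06% or 6.74% with KO replicate 1 or 2 alone. The shares at acquired sites are near the background in all of these. Distal sites had no KO PU.1 peak more often than promoter sites, at 24.2% of 1265 against 12.9% of 521. For H3K27ac the shares were 23.4% of distal and 16.1% of promoter sites, an order that rests on KO replicate 1. It was 26.6% against 19.8% with that library alone and 58.8% against 59.1% with replicate 2 alone.

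**Figure D2:**
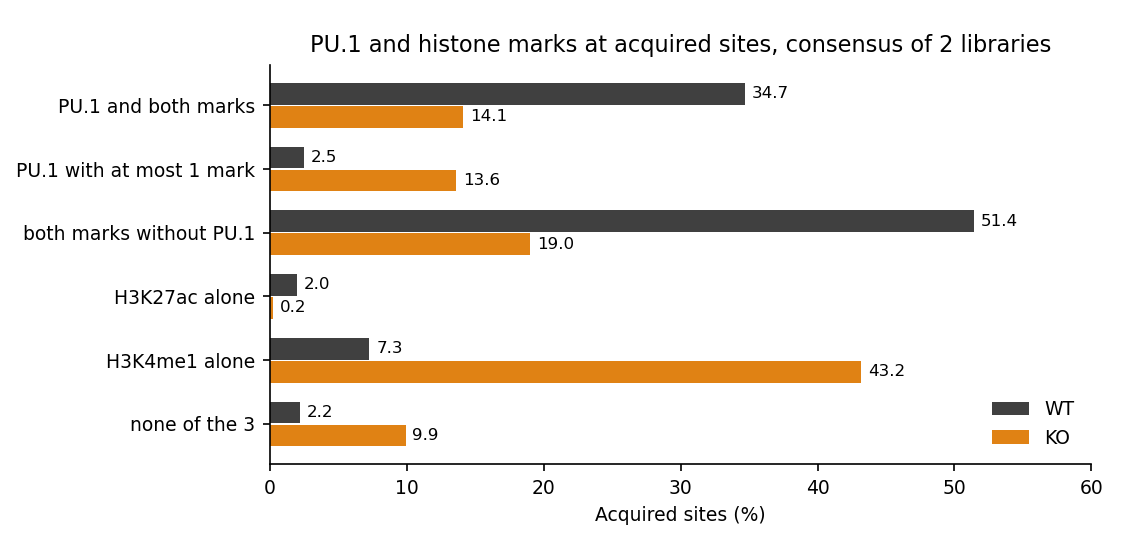
Percent of the 4804 acquired sites (x axis) with each combination of PU.1, H3K27ac and H3K4me1 consensus regions (y axis) in WT (dark) and KO (orange) microglia. The share with H3K4me1 alone is 7.26% in WT and 43.2% in KO, beside 11.5% and 48.9% of all adult IRF8 regions, and the KO H3K27ac consensus rests on the shallow KO library.

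The reverse was rare. A KO consensus region with no WT peak was found at 76 of 1329 acquired sites for PU.1, or 5.72% (background 7.91%), at 1 of 1604 for H3K27ac (background 0.167%) and at 32 of 4285 for H3K4me1, or 0.747% (background 1.32%). Absence in KO was also not more frequent at acquired sites than away from IRF8. Counted over regions of the target itself, no KO peak was found for 22.1% of the 1820 WT PU.1 regions at acquired sites and for 41.4% of the 198 with no microglial IRF8 peak, and for 18.6% of 4203 against 46.9% of 16102 WT H3K27ac regions. The regions without IRF8 were weaker, with a median within-list percentile of 49.3 against 69.2 for PU.1 and 51.1 against 86.0 for H3K27ac, and the part of this in the result was not tested.

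Sites without KO PU.1 were more often without KO acetylation. At the 373 sites whose PU.1 had no KO peak, 33.8% of 352 sites with WT H3K27ac had no KO H3K27ac, against 7.92% of 947 at the 988 sites with PU.1 in both KO libraries and 25.1% of 2565 at sites without WT PU.1. The order was the same in each KO library, with H3K27ac absent at 36.4% against 10.7% in replicate 1 and at 72.4% against 40.4% in replicate 2. Among distal sites alone the shares were 36.3% of 289 and 4.90% of 633. The same split was not counted over all adult regions, so whether it is particular to acquired sites was not tested. The sites whose PU.1 had no KO peak were also weaker in WT, with a median PU.1 percentile of 59.5 against 76.4, narrower, at 1272 against 1529 bp, and less often at promoters, at 18.0% against 33.7%.

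These sites also differed in sequence. A composite motif anywhere in the site was found at 70 of the 373 sites whose PU.1 had no KO peak, or 18.8%, and at 80 of the 988 with PU.1 in both KO libraries, or 8.10%. The extended ETS motif GAGGAAGT, the form that PU.1 prefers, had the other order at 32.7% and 42.9%. Per megabase of sequence, 121 and 45.5 of these sites held a composite motif. The Apoh and Arhgef18 sequences above are sites of the first kind, one with the composite and one with the ETS motif. These shares are descriptions over sites of the same libraries and carry no test. They were not counted for the same split of all adult regions.

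Motifs were counted in all acquired sites. The composite motif lay within 100 bp of the centre at 174 sites or 3.62% (background 3.48% of all adult regions), against 0.385% of windows of the same length 1 kb to either side. GAGGAAGT was present at 6.14% (background 6.15%) against 1.42% of those windows, and the paired IRF half-site at 3.93% (background 4.2%) against 2.88%. Motifs for AP-1 (TGANTCA) at 6.27% against 5.70%, RUNX (TGTGGTT) at 4.50% against 5.44% and CTCF (named by its core) at 1.19% against 1.68% were near the level of the windows 1 kb away. In whole sites the composite motif was present at 12.7% of acquired sites, 21% of regions with a P9 peak and 6.78% of regions with no earlier peak, and per megabase at 84.6, 108 and 74.2 sites. Distal acquired sites held it more often than promoter sites, at 15.6% against 6.63%, and over all adult regions the shares were 13.7% and 6.60%, while the GC box GGGCGG was within 100 bp of the centre of 30.9% of promoter and 3.40% of distal sites. The motifs overlap in letters, so a site can count under several.

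Composite and ETS motifs were denser beside the summits of the peaks than under them. In adult replicate 2, 395 composite motifs lay 80 to 180 bp from the strongest summit of an acquired site and 37 within 80 bp, which per 1000 summits and 100 bp is 41.3 against 4.83, with 2.51 at a distance of 500 to 600 bp. Adult replicate 1 had 38.2 against 3.82 and P14 replicate 2 had 35.8 against 7.93, and in these libraries the fullest 20 bp bins were centred at -130 or -150 bp. Adult replicate 3, of batch 2, had 26.7 against 16.6, with 3.50 at 500 to 600 bp, so motifs near the summit were also above that level. GAGGAAGT had the same arrangement, at 71.9 against 13.1 in adult replicate 2 and 93.1 against 25.7 in WT PU.1 replicate 1, while AP-1 motifs had 37.6 against 34.3 in adult replicate 2. Mean fragment lengths in the file headers were 182 to 234 bp in the adult libraries and 185 to 188 bp at P14, and the median distance of composite motifs found within 250 bp was 130 to 146 bp and 134 to 136 bp. Their part in the arrangement was not tested. A window around the summit therefore misses motifs: the composite share within 100 bp was 1.44% around the strongest adult summit in place of the centre.

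**Figure D3:**
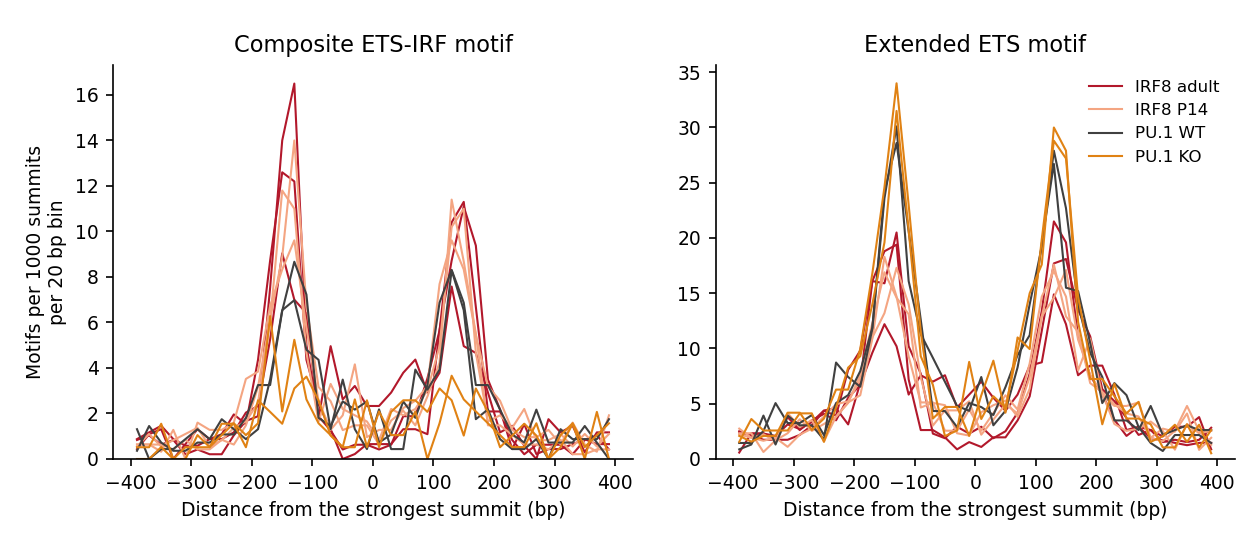
Motifs per 1000 summits in 20 bp bins (y axis) by distance from the strongest summit of each acquired site in bp (x axis), for the composite ETS-IRF motif (left) and the extended ETS motif (right), with 1 line for each IRF8 and PU.1 library. Motifs stand in 2 shoulders beside the summit. The composite shoulders of the PU.1 libraries are lower in KO than in WT, and the ETS shoulders are not. The same profile was not made for all adult IRF8 regions.

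At PU.1 summits the 2 motifs behaved differently in the genotypes. Composite motifs lay 80 to 180 bp from 5.57% and 4.93% of the WT PU.1 summits at acquired sites. For the KO summits the shares were 2.77% and 2.43%. For GAGGAAGT the shares were 17.6% and 17.8% in WT and 19.7% and 18.6% in KO. The WT libraries had 2767 and 2292 such summits and the KO libraries 1910 and 1935, so the sets of sites differed. These shares were not counted over all adult regions, so whether they are particular to acquired sites was not tested. With 2 libraries of each genotype no exact test could fall below 0.333, and none was made.

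About 1 in 2 acquired sites also had IRF8 in peritoneal macrophages. The macrophage libraries had a peak at 61.2%, 52.7% and 16.9% of acquired sites in replicates 1, 2 and 3, and the low value is that of batch 2, whose list was also the shortest at 9788 regions. By consensus 2284 or 47.5% had macrophage IRF8 (background 39.5% of all adult regions), a value that rests on the 2 libraries of batch 1, since without replicate 1 or 2 it was 13.2% or 14.5%. In each library the share lay between that of regions with a P9 peak, at 79.5%, 73.0% and 35.3%, and that of regions with no earlier peak, at 32.8%, 25.3% and 6.83%. The mean differences were -19.0 points (SD 1.13) and 22 points (SD 10.3), in the same direction in 3 of 3 libraries, each with the smallest exact sign-flip permutation p of 0.25 (adjusted 0.333). No macrophage peak was found at 1495 acquired sites or 31.1% (39.9% of all adult regions), of which 19.8% were at promoters and 30.0% had WT PU.1. Peaks in all 3 macrophage libraries were found at 635 sites or 13.2% (11.8% of all adult regions), of which 43.9% were at promoters and 41.4% had WT PU.1.

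The acquired sites had 3366 nearest protein-coding genes, or 15.4% of the 21924 annotated, and 42.7% of the 7878 genes nearest to any adult IRF8 region. One site each was nearest to 2481 of them. Of these genes, 894 were also nearest to a region with a P9 peak, which is 26.6% of the genes of acquired sites and 41.3% of the genes of P9-bound regions. Most sites gathered at Frmd4a, a scaffold protein of cell polarity, with 9, followed with 8 each by Asap1, Bach2, Cited2, Kctd12, Plcl1, Tbl1xr1 and Zeb2. Bach2 is a transcriptional repressor, Cited2 a coregulator that binds CBP and p300, Tbl1xr1 a subunit of the NCoR corepressor complexes and Zeb2 a transcription factor that upholds macrophage identity. All 8 sites of Bach2 had H3K27ac in both WT libraries, and 4 of them had it in no KO library; Frmd4a had 9 and 4. None of the 8 sites of Zeb2, Asap1, Cited2 or Tbl1xr1 was without KO H3K27ac.

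Genes of microglial identity and signalling were the nearest gene of an acquired site most often among the lists examined. The homeostatic microglia list had 19 of 24 genes (background 15.4% of protein-coding genes and 30.1% of the 8539 genes with WT H3K27ac at a start). Lists for phagocytosis and immunoreceptor signalling had 21 of 29, AP-1 and BATF factors 11 of 16, myeloid transcription factors 25 of 37, Toll-like receptor and NF-kB signalling 20 of 35, the TGF-beta pathway 14 of 25, and cytokines, chemokines and their receptors 20 of 39. Disease-associated microglia genes had 10 of 25, interferon regulatory factors and STATs 6 of 16, interferon-inducible GTPases 5 of 14, type I interferon-stimulated genes 11 of 33, lysosome genes 11 of 34 and antigen presentation 8 of 26. Complement and Fc receptor genes had 6 of 21, inflammasome and NAIP genes 4 of 15 and housekeeping genes 3 of 24. Lists of other cells had 7 of 15 for peritoneal macrophages, 3 of 13 for border macrophages, 2 of 13 for neurons, 2 of 10 for astrocytes, 3 of 12 for the oligodendrocyte lineage, 2 of 10 for endothelium and 1 of 9 for lymphocytes. Other adult regions were also nearest to genes of the first lists, given here in the order from homeostatic genes to cytokines. Regions with a P9 peak were nearest to 11, 21, 7, 19, 17, 10 and 20 of their genes, and to 9.87% of protein-coding genes. Regions with no earlier peak were nearest to 13, 19, 7, 25, 17, 8 and 14, and to 15.2% of protein-coding genes. Nearness does not show that a site acts on the gene.

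**Figure D4:**
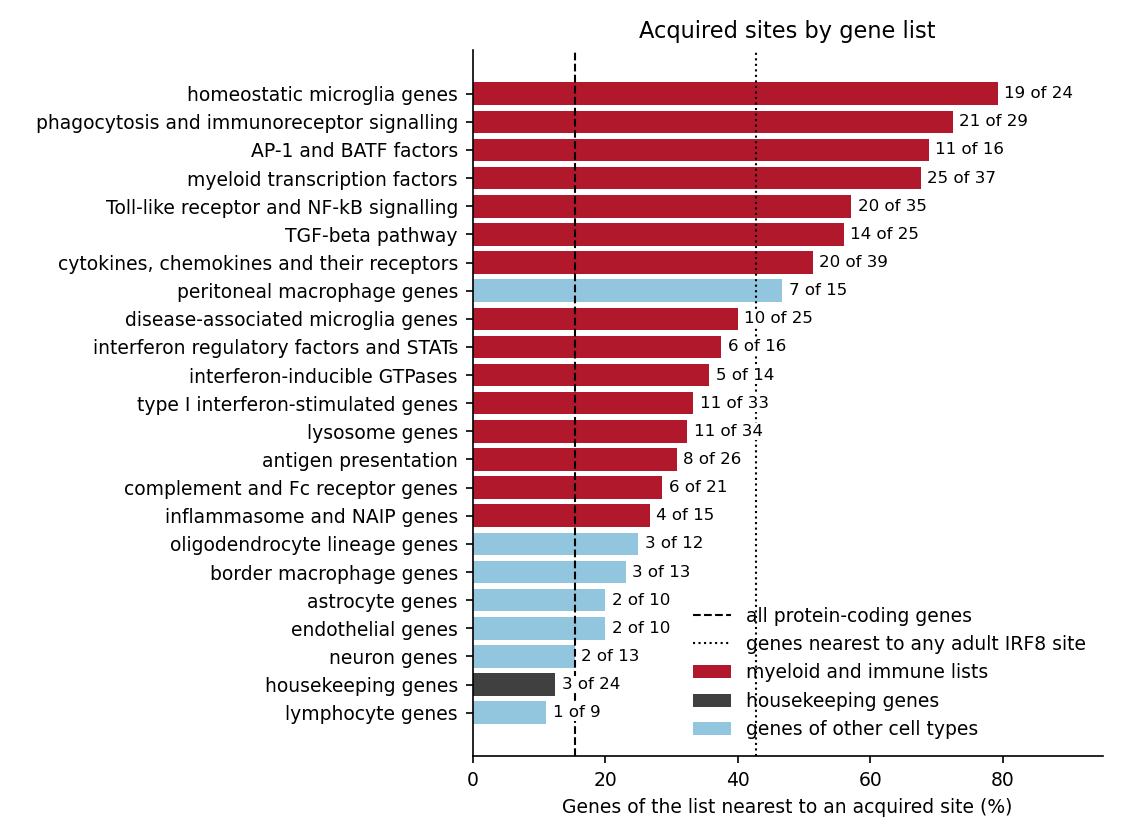
Percent of the annotated genes of each list that are the nearest gene of an acquired site (x axis), by list (y axis), with the counts beside the bars. The dashed line is the share of all protein-coding genes (15.4%) and the dotted line that of genes nearest to any adult IRF8 region (42.7%). Homeostatic microglia genes are highest and lymphocyte genes lowest.

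The lists differed in what their sites carried. At the 38 sites of homeostatic genes PU.1 was in both WT libraries at 23, of which 9 had no KO PU.1 peak, and 20 had no macrophage peak. Of these 20, 6 were the sites of Sall1. Over all acquired sites the same counts were 1850 of 4804, 401 of 1850 and 1495 of 4804. Homeostatic genes were not alone in this. Phagocytosis and immunoreceptor signalling had PU.1 in both WT libraries at 29 of 46 sites, of which 3 had no KO PU.1 peak. The TGF-beta pathway had it at 14 of 29, of which 6 had no KO PU.1 peak. None of the list counts here was made over all adult regions. The 61 sites of myeloid transcription factors had H3K27ac in both WT libraries at 60, of which 4 had none in KO, against 902 of 4274 over all acquired sites. The 30 sites of AP-1 and BATF factors had PU.1 in both WT libraries at 12, and none of these was without KO PU.1. The 11 sites of type I interferon-stimulated genes were at promoters in 8 cases and lacked a macrophage peak in 1, and of the 9 antigen presentation sites 8 were at promoters and none lacked a macrophage peak.

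The Sall1 locus carried 6 acquired sites. Sall1 encodes a zinc finger transcription factor that sets microglia apart from other macrophages. Its strongest site was named by rank, and the other 5 are shown after their values were seen. It was at chr8:89285604-89286894, between genes, 242087 bp upstream of the start. The authors' fold enrichment of IRF8 over the control there was 12.5, 16.6 and 6.44 in P14 replicates 1, 2 and 3 and 24.5, 25.2 and 11 in the adult replicates. H3K27ac was enriched 11.2-fold and 17.0-fold in WT and H3K4me1 3.22-fold and 2.54-fold, and no KO library of either mark had a peak. No PU.1 library of either genotype and no macrophage library had a peak at this site. The other sites lay 66979, 83302, 138251, 349045 and 525801 bp upstream. Of all 6, 4 had PU.1 in at least 1 WT library and 0 in a KO library, 5 had H3K27ac in both WT libraries and 0 in a KO library, and 6 had no macrophage peak. H3K4me1 was in both WT libraries at 5 and in a KO library at 2.

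The sites of Tgfbr2, which encodes the type II receptor for TGF-beta, a signal on which microglial identity depends, showed another pattern and were also singled out after their values were seen. All 7 had H3K27ac in both WT libraries and in a KO library, all 7 had H3K4me1 in both KO libraries, and all 7 had a macrophage peak. PU.1 was in at least 1 WT library at 5 and in a KO library at 2. At Cx3cr1, the fractalkine receptor gene, 1 acquired site at chr9:120067387-120071343 covered the promoter. IRF8 enrichment there was 7.5 and 6.13 in P14 replicates 1 and 2 and 10.4 and 7.99 in adult replicates 1 and 2, with no peak in replicate 3 of either. PU.1 was enriched 6.05-fold and 3.45-fold and H3K27ac 6.17-fold and 7.85-fold in WT, and neither had a peak in a KO library, while H3K4me1 was 3.32-fold and 2.33-fold in WT and 4.15-fold and 3.92-fold in KO.

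**Figure D5:**
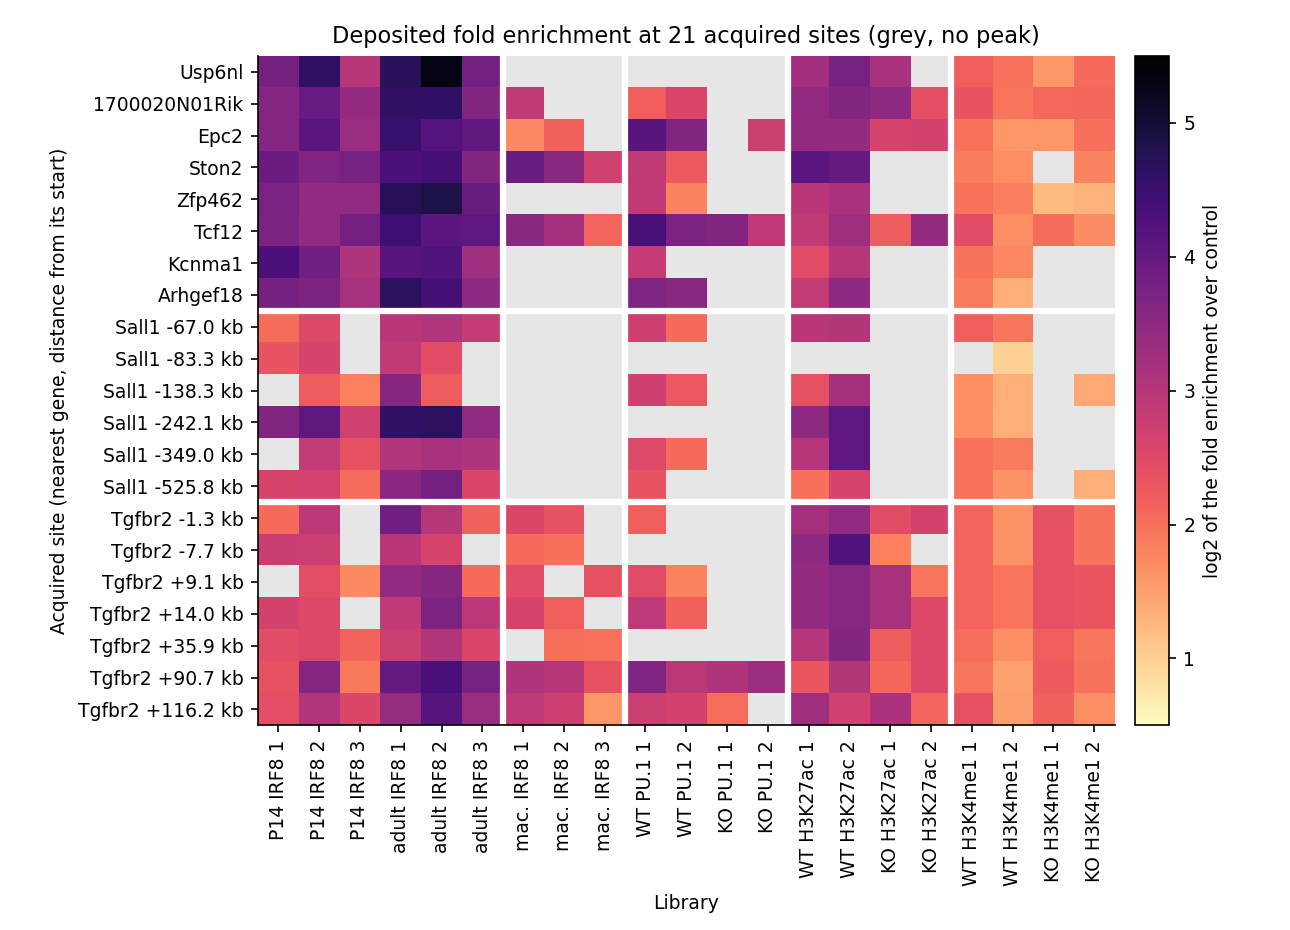
Colour gives the log2 of the deposited fold enrichment over the control in each library (x axis) at 21 acquired sites (y axis): the 8 of highest rank, the 6 of Sall1 and the 7 of Tgfbr2, with grey for no peak. The Sall1 sites are grey in all macrophage, KO PU.1 and KO H3K27ac libraries, where every Tgfbr2 site has at least 1 KO H3K27ac and 1 macrophage peak.

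The 8 acquired sites of highest rank were nearest to Usp6nl, 1700020N01Rik, Epc2, Ston2, Zfp462, Tcf12, Kcnma1 and Arhgef18. The site at Usp6nl, which encodes a GTPase-activating protein for RAB5, was at chr2:6441787-6446037 with its centre in an exon, and IRF8 was enriched 13.6-fold, 24.7-fold and 7.80-fold at P14 and 25.9-fold, 39.6-fold and 14-fold in adults. It had no PU.1 and no macrophage peak, and H3K27ac was 9.51-fold and 13.4-fold in WT and 8.80-fold in KO replicate 1. The site in an intron of Arhgef18 was at chr8:3441418-3442233. PU.1 was enriched 12.6-fold and 11.7-fold and H3K27ac 7.09-fold and 11.1-fold in WT, and no KO library of PU.1, H3K27ac or H3K4me1 had a peak. Zfp462, a zinc finger protein gene, had its site 447423 bp upstream at chr4:54496939-54498312, with PU.1 at 7.23 and 3.45 and H3K27ac at 7.71 and 8.83 in WT and neither in KO, while H3K4me1 was 3.93 and 3.58 in WT and 2.33 and 2.44 in KO. Neither site had a macrophage peak.

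Ston2 and Tcf12 were the strongest sites with a peak in all 3 macrophage libraries. At Ston2, an endocytic adaptor gene, macrophage IRF8 was enriched 15.4-fold, 11.6-fold and 6.30-fold, beside 15, 12.6 and 13.5 in P14 and 19.7, 20.7 and 12.2 in adult microglia. The third macrophage value was below every microglial one. WT H3K27ac was 17.4 and 15.6 there, and the KO libraries had no PU.1 and no H3K27ac peak. At Tcf12, which encodes an E-protein of the helix-loop-helix family, PU.1 was 20.2 and 13.0 in WT and 12.4 and 7.39 in KO, so that all 4 libraries had a peak. Kcnma1, the gene of a calcium-activated potassium channel, had an intronic site with H3K27ac at 5.53 and 7.91 in WT and no peak of PU.1 or either mark in KO.

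Among genes of immune function, acquired sites with PU.1 in every library included those at Batf, Inpp5d and Tlr2, and also at Fcgr1, C5ar2 and Irak2. Batf encodes an AP-1 factor that pairs with IRF proteins, and at its intronic site chr12:85705157-85706077 PU.1 was enriched 33.3-fold and 14.5-fold in WT and 32.2-fold and 22.8-fold in KO, so the genotypes overlapped. IRF8 was 7.5, 15.9 and 9.95 at P14 and 16.6, 16.9 and 11.8 in adults. At Inpp5d, the gene of the phosphatase SHIP1, PU.1 was 14.9 and 11.1 in WT and 13.0 and 8.06 in KO. Tlr2, a receptor for bacterial lipopeptides, had PU.1 at 16.3 and 16.2 in WT and 12 and 13.4 in KO. The KO values were the lower ones there. Fcgr1 had the reverse order, with PU.1 at 11 and 9.66 in WT and 15.8 and 13.4 in KO. At Inpp5d, C5ar2 and Irak2 the genotypes overlapped. At Elmo1, which acts with DOCK proteins in engulfment, PU.1 was 15.1 and 7.62 in WT and present in KO replicate 2 only, at 4.91, and no macrophage library had a peak.

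Promoters held 4 of 5 acquired sites of interferon-inducible GTPases, 8 of 11 of type I interferon-stimulated genes and 8 of 9 of antigen presentation. For interferon regulatory factors and STATs they held 3 of 7, and over all acquired sites 1569 of 4804. The promoter share of all adult regions at these genes was not counted. At Irgm1, an immunity-related GTPase gene, the promoter site was at chr11:48870206-48873092. IRF8 there was 7.91, 7.42 and 6.14 at P14 and 9.02, 10.3 and 11 in adults. These values did not overlap, but each age had its own IgG control. How many acquired sites had this order was not counted. PU.1 was 8.33 and 7.26 in WT and had no KO peak, while H3K27ac was 8.21 and 10.8 in WT and 9.25 and 8.86 in KO and overlapped. Irgm2 kept H3K27ac in KO replicate 1 only, at 7.12 against 7.34 and 6.62 in WT. B2m, the light chain of MHC class I, had PU.1 at 4.54 and 3.79 in WT and none in KO, with H3K27ac in all 4 libraries. Gbp2, a guanylate-binding protein gene, had no PU.1 peak in any library and H3K27ac in all 4. The Irf7 promoter, of a factor that drives type I interferon, had H3K27ac of 3.13 and 3.45 in WT and 6.23 in KO replicate 2 only. Fold enrichments are the authors' values, each within its own list, and differences between libraries were not tested.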

How the data were processed

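CUT&RUN peak lists were the data, and all values start from them. Reads were processed with bcl2fastq, Trim Galore, Bowtie2, deepTools and MACS2 on mm10, per the submitters' processing notes. Per the file headers, the authors called peaks in each library with MACS 2.2.7.1 (IRF8, PU.1) or 2.2.6 (histone marks), with duplicates kept. The q threshold was 0.01, but 0.05 in the second PU.1 library of WT and of KO, and H3K4me1 was called as broad regions at p 0.01. The deposited lists give each peak's pileup (a fragment coverage signal), its −log10 p and its fold enrichment, a ratio over the IgG control, per the file headers.

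Peaks were merged in Python 3.11.15 with pandas 2.3.3, numpy 2.4.6, scipy 1.17.1 and pysam 0.24.0, with the GRCm38 genome and GENCODE annotation, and the scripts were tested on simulated data. A site took the protein-coding gene with the nearest start to its centre. Depths are the fragments per library in the file headers. Peak presence carries no depth of its own, so no counting interval is given. Libraries were the replicates: KO and WT were compared by exact permutation tests, and classes of sites by exact sign-flip permutation tests within libraries, with Benjamini-Hochberg adjustment. The alternatives were the consensus rule, peak threshold, overlap, absence at P9, list length, width, point of the site, distances, strength classes, replicate block and leaving out each library.

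Named sites were the highest-ranked of all, in each pattern of PU.1, H3K27ac and macrophage IRF8, with a composite motif, and in each gene list. A site on chromosome Y or wider than 10 kb was not named. The Tgfbr2, Cx3cr1 and further Sall1 sites were added after their values were seen. The members and lists were chosen with earlier results of these data known. The IgG libraries were used only through the authors' calls.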

Additional observations from a re-analysis of the deposited data

How the results depend on the processing

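Of 412 values under alternatives, 343 counted as the same, 58 as moved and 11 as reversed. A share counted as the same when it stayed within the spread between libraries. Counts of sites from 3222 to 6024 counted as the same as 4804. A difference counted as the same when it kept its direction, with no limit on its size. The PU.1 difference from P9-bound regions thus counted as the same at -5.90 points within strength classes, against -17.8 (SD 4.79). With a peak required in every library of a group, there were 1442 acquired sites, with WT PU.1 at 51.7%, no KO PU.1 at 22.6% of those, WT H3K27ac at 93.6%, WT H3K4me1 at 96.5%, macrophage IRF8 at 17.9%, a start within 1 kb at 30.0% and the composite motif at 4.02%. With P14 and adult lists at the length of the shortest, these were 2302 sites, 47.4% with WT PU.1, 22% of those without KO PU.1, 27.1% near a start and 4.30% with the motif. With sites up to 2000 bp, 22.8% lacked KO PU.1, 32.3% were near a start and 4.22% held the motif. The share near a start was 32.4% at a −log10 p of at least 5, 32.4% with absence of a P9 consensus region only (motif 3.78%), 31.6% from the strongest summit (motif 1.44%) and 54.6% within 5 kb; the motif share within 250 bp was 6.85%. The H3K27ac difference from P9-bound regions turned to 0.260 points with every library required, 0.589 up to 2000 bp and 5.51 within strength classes, and that of H3K4me1 to 0.0410, 1.35 and 6.61. The cause was not tested.

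Leaving out 1 library at a time gave 1859 (without P14 replicate 2) to 5420 sites (without P9 replicate 3). WT PU.1 ranged from 37.9% to 57.6%, its absence in KO from 20.6% to 33.3%, WT H3K27ac from 88.7% to 94.8%, its absence in KO from 20.4% to 58.9%, WT H3K4me1 from 94.8% to 97.1%, its absence in KO from 3.15% to 9.06%, and macrophage IRF8 from 13.2% to 54.4%. The share near a start ranged from 30.7% to 33.3% and that of the motif from 3.55% to 4.38%. The H3K4me1 difference from P9-bound regions ranged from -0.700 to 0.741 points, and reversed to 0.0274, 0.10, 0.741, 0.564 and 0.408 without KO H3K4me1 replicate 1, KO H3K4me1 replicate 2, P14 replicate 2, P14 replicate 3 and P9 replicate 3. Where a pair lost a library, the other was used alone.

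With the replicate number as a block the KO minus WT differences were again -12.6, -38.9 and -5.18 points, with an exact permutation p of 0.500, the smallest 2 pairs allow. Deviations of same-numbered libraries correlated at 0.0354 for PU.1, 0.0263 for H3K27ac and -0.00648 for H3K4me1 over 16935 regions. These correlations cannot show whether the libraries were paired. Same-numbered PU.1 libraries of WT and KO also shared a q threshold and a control. The short P9 lists limit what absence at P9 means, and the shallow KO H3K27ac replicate 2 limits every KO acetylation value.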
